A study of Mus musculus with 8 samples.

Results

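Fragments of ribosomal RNA (rRNA) were examined among the short RNAs bound to the RNA-induced silencing complex (R-sRNAs) of mouse brain. A sequence was counted as an rRNA fragment when it matched no miRNA, when the annotation deposited with it classed its source as rRNA, and when that annotation named no tRNA. This held for 789 of the 47204 distinct sequences, and none of these criteria used an abundance or a comparison. Cortex and hippocampus of each brain were pooled for RNA, and the 8 libraries were from 4 5XFADtg Rubicon+/- mice (het) and 4 5XFADtg Rubicon-/- mice (ko). The study's methods give the mice as female. Every mouse carried 5XFAD, a transgene of mutant human amyloid precursor protein and presenilin that is expressed in neurons, so the genotypes differed in the autophagy gene Rubicon and no library lacked the transgene. Their age was not given in the labels, while the study names adult ages without tying them to single libraries. The Argonaute (Ago) proteins were pulled down from lysates with a GW182 peptide, which binds Ago proteins, and the short RNAs in them were sequenced (Ago-RP-Seq).

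In background, a cell makes one long pre-rRNA that holds the 18S, 5.8S and 28S rRNAs between spacers, and nucleases trim it to the mature molecules, while 5S rRNA has genes of its own and the 12S and 16S rRNAs are read from the mitochondrial genome. Ribosomes hold most of the RNA of a cell, so pieces of rRNA are a common by-product in small RNA libraries. A short RNA that is loaded into Ago acts as a guide through its 6mer seed, bases 2 to 7. Guides with certain seeds kill cells by death induced by survival gene elimination (DISE), the mechanism under study. The 6mer seed viability is the percent viability of cells given a short RNA with that seed, as the mean of 3 mouse cell lines in an earlier screen. A low value marks a toxic seed.

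Leading sequences of the rRNA ends described below are shown first, 5′ to 3′, with the 6mer seed in capitals. The first 3 overlap at the 3′ end of 5.8S rRNA and differ by 1 base at the 5′ end, and so in their seed.
5.8S 3′ end, start 1: aCGCCTGtctgagcgtcgcttt
5.8S 3′ end, start 2: tACGCCTgtctgagcgtcgctt
5.8S 3′ end, start 3: cTACGCCtgtctgagcgtcgct
28S 5′ end: cGCGACCtcagatcagacgtgg
18S 5′ end: tACCTGGttgatcctgccagt
mitochondrial 16S 5′ end: aCTAATCctagccctagccct
mitochondrial 12S 3′ end: gTGTGCTtggaataata
The next lines show the 5′ end of 5.8S rRNA, again with starts 1 base apart, and then the sequence with the lowest and the one with the highest seed viability among those whose mean reached 1 count per 1000000 sequenced reads (CPM).
5.8S 5′ end, start 1: cGACTCTtagcggtggatca
5.8S 5′ end, start 2: gACTCTTagcggtggatca
lowest viability, 28S: tCGCGGCgtgggaaatgtgg
highest viability, pre-rRNA: cATTCGTagacgacctgcttc
The places in 18S, 5.8S and 28S are background knowledge of these molecules, since no genome sequence of them was used here. The mitochondrial places were found by matching.

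rRNA fragments were a small share of the R-sRNAs, with 28103 of 38191202 reads. They made up 0.0979%, 0.0940%, 0.0724% and 0.110% of the reads of het replicates 1 to 4, and 0.0711%, 0.0629%, 0.105% and 0.0969% of ko replicates 1 to 4. The shares were 0.0936% ± 0.0158 in het and 0.0840% ± 0.0201 in ko (SD, n = 4 each), and they overlapped between the genotypes. The difference of -0.00966 percentage points was smaller than the spread between mice (exact two-sided permutation test over 70 splits, p = 0.457, adjusted over 4 measures p = 0.610, smallest possible p 0.0286). Both ko libraries with the lowest shares were also the most deeply sequenced, and without them the ko share was the higher one, by 0.00731 percentage points (exact permutation p = 0.667). With 1 library left out the difference ran from -0.0167 without het replicate 3 or ko replicate 3 to -0.00263 without ko replicate 2, and was -0.00411 without het replicate 4 and -0.00538 without ko replicate 1. Without the 3′ end of 5.8S it was -0.000435. In the same libraries tRNA fragments held 0.379% to 1.10% of the reads and miRNAs 95.8% to 97.3%.

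The libraries held from 509839 to 19878054 reads, a 39.0-fold range, and the rRNA reads in them numbered from 499 in het replicate 1 to 12503 in ko replicate 2. With the 95% Wilson interval, the rRNA share was 0.0897% to 0.107% in the former and 0.0618% to 0.0640% in the latter, and these intervals cover counting error only. Only 34 of the 789 sequences were seen in all 8 libraries, 184 were seen in 1 library, and 142 stood at 8 reads in all, the fewest of any sequence in the table. A level of 3 reads, taken as the lowest that could be told from 0, came to 5.79 CPM for het replicate 1 and to 0.151 CPM for ko replicate 2. The tissue label was met by brain miRNAs, with miR-124-3p between 34019 and 73960 CPM, while the liver miRNA miR-122-5p lay between 8.8 and 22.3 CPM. The muscle miRNA miR-1a-3p lay between 55.6 and 211.8 CPM and the erythroid miR-451a between 531.1 and 1912 CPM, and the part of blood in the rRNA fragments was not tested.

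By source entry, 5.8S rRNA gave the most reads on average, although it is among the shortest rRNAs. In ko replicate 3, pre-rRNA entries stood higher, at 369 CPM against 296 CPM for 5.8S. Its 94 sequences held 33.3% ± 3.52 of the rRNA reads (SD, n = 8), from 27.8% to 38.3%. In CPM, 5.8S fragments stood at 369, 310, 246 and 374 in het and 249, 218.7, 296 and 266 in ko (mean 325 and 258). Sequences assigned to the whole pre-rRNA unit followed with 373 sequences and 27.3% ± 3.63, and since that entry spans mature rRNA as well as spacers, the label does not tell them apart. By their own entries, the 28S rRNA gave 15.5% ± 3.22 from 70 sequences and the 18S rRNA 15.3% ± 3.14 from 169. These 2 shares did not differ beyond their spread. Pre-rRNA sequences were not divided among the mature rRNAs, so the full shares of 5.8S, 28S and 18S were not determined. The mitochondrial 16S rRNA gave 3.83% ± 0.823, 5S rRNA 1.67% ± 0.545 and the mitochondrial 12S rRNA 1.0% ± 0.471. Another 2.14% ± 0.801 came from 35 sequences whose rRNA could not be identified from its entry, and 1 sequence was of the 4.5S type.

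The assignment to a source has limits at repeated sequences. Of the 169 sequences of 18S, 72 matched Gm42418 without a mismatch, an annotated copy of part of an 18S gene on chromosome 17 (GRCm38, 39846958 to 39848788, plus strand). Of the 22 sequences of 5S, 9 also matched transcripts of the gene Tmem38b, and 11 of the 373 pre-rRNA sequences matched transcripts of Lars2. For these the copy that gave the RNA is not known.

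The 3 largest groups of overlapping sequences lay at ends of mature rRNAs, as placed by background knowledge. Sequences of pre-rRNA entries were not placed. When sequences that share a stretch of 15 bases were put together, the 789 formed 223 families, of which 130 had 1 sequence. The 3 leading families held 45.9% of the rRNA CPM and the first 20 held 79.9%. The largest, at the 3′ end of 5.8S, had 73 sequences and 29.9% ± 5.93 of the rRNA reads in a library. The second, at the 5′ end of 28S, had 29 sequences and 10.4% ± 3.07, and the third, at the 5′ end of 18S, had 25 sequences and 6.51% ± 1.46. Errors here are SD over the 8 libraries.

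The families at the 5′ ends of 28S, 18S and the mitochondrial 16S rRNA kept that end and varied at the other. In the 28S family, 97.7% of the CPM began with the same 12 bases as its leading sequence, and in the 18S family 93.7%, whereas 42.1% and 23.3% ended with the same 12 bases. In the mitochondrial 16S family 98.3% shared the start. The leading sequence of the mitochondrial 16S family began at base 1 of mt-Rnr2, the gene of this rRNA, which lies on chromosome M from 1094 to 2675 (GRCm38, plus strand), and it covered 1094 to 1114. The family at the 5′ end of 5.8S was the other way round, with 35.8% starting and 67.0% ending like its leading sequence. At the 3′ end of the mitochondrial 12S rRNA, 98.8% of the CPM ended in the same 12 bases and 57.0% started alike. The leading sequence there matched mt-Rnr1 (chromosome M, 70 to 1024) over its last 16 bases, from 1009 to 1024, and carried 1 base more, an A, that was not in the annotated gene.

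The 3′ end of 5.8S was the single place with the most rRNA reads. Its 73 sequences summed to 357, 301, 229 and 330 CPM in het replicates 1 to 4 and to 235, 206, 213 and 203 CPM in ko replicates 1 to 4, and het replicate 3 lay within the ko values. The means were 304 ± 55.1 CPM in het and 214 ± 14.7 CPM in ko (SD, n = 4), a description without a test because the family was formed after values of these data were known. Sequences that reached the last bases before the 3′ tail, gagcgtcgc, numbered 47 and held 73.8% of the family. They ended in 3 T in 35.6% ± 6.49 of the CPM, in 2 T in 28.2% ± 7.89, in 1 T in 23.3% ± 10.7 and in 4 T in 5.18% ± 3.14 (SD, n = 8), so the first 3 lengths did not stand apart beyond their spread. No T followed in 3.60% ± 3.57, and other bases in 3.32% ± 1.74. Which of these T belong to the gene was not determined here.

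At the other end of the same sequences the start set the seed. The start shown second above, with seed ACGCCU and a seed viability of 65.1, held 49.3% ± 7.10 of the CPM, and the start 1 base further in, with seed CGCCUG and 61.9, held 31.2% ± 10.04. The start 1 base further out, with seed UACGCC and 44.3, held 7.20% ± 3.51. The other starts held less, whatever their seed viability. Among those under 40, GCCUGU with 39.8 held 3.47% ± 2.48, CCUGUC with 31.8 held 3.18% ± 2.15 and GUCUGA with 33.4 held 0.963% ± 1.67. Among those over 40, UGUCUG with 58.7 held 3.14% ± 2.61, CUGUCU with 61.8 held 1.30% ± 1.26, and 2 more held 0.118% and 0.0875%.

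At the 5′ end of 5.8S, starts 1 base apart had a toxic and a nontoxic seed. The sequence with seed GACUCU, of viability 11.3, stood at 3.86, 3.44, 1.55 and 14.3 CPM in het and 1.40, 1.81, 39.5 and 13.7 CPM in ko. The sequence that began 1 base later, with seed ACUCUU and a viability of 75.0, stood at 0, 0, 2.33 and 20.6 CPM in het and 2.29, 3.77, 23.2 and 25.5 CPM in ko. Both were high in het replicate 4 and in ko replicates 3 and 4 and low in the other libraries, so neither followed the genotype. The whole family of 19 sequences ranged from 8.94 to 78.6 CPM.

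The most abundant single sequences came from these families. The first 10 held 26.4% of the rRNA CPM, and 6 of them were from the 3′ end of 5.8S. The leading one, shown as start 1, stood at 71.4, 59.2, 16.7 and 34.5 CPM in het and 49.9, 37.5, 36.1 and 17.6 CPM in ko. The second, shown as start 2, stood at 67.6, 40.6, 32.2 and 43.2 CPM in het and 47.3, 35.8, 37.8 and 7.84 CPM in ko. The third was the 28S 5′ end, at 27.0, 16.5, 54.0 and 29.7 CPM in het and 31.2, 38.7, 52.4 and 39.2 CPM in ko. In each of these the genotypes overlapped, and ko replicate 4, one of the shallower libraries, was the lowest for both 5.8S sequences among the ko mice.

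Shorter and longer forms of these ends followed. The 21-base form of start 2 (mean 26.5 CPM) and its 23-base form (18.4 CPM), the 23-base form of the 28S end (23.5 CPM) and the 21-base form of start 1 (10.7 CPM) were the other abundant forms of ends shown above. The mitochondrial 16S end had a mean of 13.1 CPM and the 18S end 12.4 CPM. The remaining one, tCCTCCCggggctacgcctgtct, began upstream of start 1 in 5.8S, had a seed viability of 40.9, and was 0 in het replicate 1 and 6.19 to 27.8 CPM in the other 7 libraries.

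In length the rRNA fragments peaked where miRNAs do. Sequences of 22 bases held 25.8% ± 4.53 of the rRNA CPM, those of 21 bases 17.6% ± 2.31 and those of 23 bases 17.2% ± 2.26 (SD, n = 8), over a range of 15 to 28 bases. The share of 21 to 23 bases was 60.5% ± 6.72 for rRNA fragments, 84.4% ± 0.847 for miRNAs and 39.7% ± 8.28 for tRNA fragments. It was lower than for miRNAs in 8 of 8 libraries, by 23.8 ± 6.75 percentage points, and higher than for tRNA fragments in 8 of 8, by 20.8 ± 4.98 (exact two-sided sign-flip permutation test within libraries, p = 0.00781 each, adjusted over 8 such tests p = 0.00893, the smallest raw p possible being 0.00781). Sequences of 15 to 18 bases made up 10.8% ± 3.87 of rRNA fragments against 0.322% ± 0.0206 of miRNAs and 26.6% ± 6.47 of tRNA fragments. The gel cut stated for these libraries began at 19 bases.

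The first base also differed from that of miRNAs. Ago proteins are known to favour guides that start with U or A. A T (U in the RNA) stood first in 39.4% ± 3.66 of rRNA fragments, 74.0% ± 1.52 of miRNAs and 55.4% ± 2.61 of tRNA fragments. A C stood first in 30.5% ± 3.20, 5.05% ± 0.351 and 4.24% ± 0.885. The excess of C was 25.4 ± 3.05 percentage points over miRNAs and 26.2 ± 3.62 over tRNA fragments, in 8 of 8 libraries each, and the deficit of T was 34.5 ± 2.81 and 15.9 ± 5.61, also in 8 of 8 (sign-flip permutation p = 0.00781 in all 4 tests, adjusted p = 0.00893). The 28S 5′ end alone, of which 0.208% began with T, held 10.4% of the rRNA reads. The GC content was 62.2% ± 1.02 for rRNA fragments and 44.6% ± 0.561 for miRNAs, 17.6 ± 0.811 points higher in 8 of 8 libraries (permutation p = 0.00781, adjusted p = 0.00893). Against tRNA fragments it was 2.12 ± 1.80 points higher, in 7 of 8 libraries (permutation p = 0.0234, adjusted p = 0.0234).

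Over all rRNA fragments the seed viability centred on intermediate values. Seeds of viability 60 to 80 held 45.2% ± 5.79 of the rRNA CPM and seeds of 40 to 60 held 36.3% ± 4.41, while seeds of 0 to 20 held 7.35% ± 2.40 and seeds of 20 to 40 held 7.91% ± 2.61 (SD, n = 8). The values of single sequences ran from 4.4 to 101.5, with 190 of the 789 under 40 and 47 over 80. The CPM-weighted mean was 59.7, 54.9, 56.0 and 54.5 in het replicates 1 to 4 and 57.3, 56.9, 53.6 and 55.4 in ko replicates 1 to 4. The group means were 56.3 ± 2.36 and 55.8 ± 1.66 (SD, n = 4), a difference of -0.48 within the spread between mice (exact permutation p = 0.771, adjusted over 4 measures p = 0.771).

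The share of rRNA reads with a toxic seed, of viability under 40, was 9.62%, 15.97%, 12.1% and 17.2% in het and 13.9%, 13.3%, 22.2% and 17.9% in ko. It averaged 13.7% ± 3.48 and 16.8% ± 4.11, and the ranges overlapped (difference 3.09 percentage points, exact permutation p = 0.314, adjusted p = 0.610). The mean length was 21.2 ± 0.283 bases in het and 21.5 ± 0.253 in ko (difference 0.32, exact permutation p = 0.143, adjusted p = 0.571). None of the 4 measures of the rRNA fragments passed the test between the genotypes. Leaving out ko replicate 3, which had the highest toxic share, made the difference 1.31 percentage points (exact permutation p = 0.600), and leaving out het replicate 1, which had the lowest, made it 1.72 (exact permutation p = 0.629). With any other library left out the difference was between 2.55 and 4.26 percentage points. Without the 2 deepest libraries, both ko, it was 6.30, and the ko values then lay above all het values (exact permutation p = 0.133, the smallest possible with 6 libraries).

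Pre-rRNA entries gave 40.3% of the rRNA CPM with a seed viability under 40, 5.8S gave 18.3%, 28S 14.6% and 18S 13.8%. The family led by tCCCACCcccctccgtcgcctct, with 17 pre-rRNA sequences, had seeds under 40 in 99.6% of its CPM, and summed to 1.93, 13.8, 6.99 and 18.02 CPM in het and 7.38, 5.93, 31.8 and 10.8 CPM in ko. In the family led by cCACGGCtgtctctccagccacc, from unidentified rRNA entries, the 20 sequences with a seed viability under 40 summed to 5.79, 11.004, 8.15 and 10.1 CPM in het and 12.7, 13.9, 12.03 and 18.6 CPM in ko. These ranges did not overlap, but those of all 33 sequences of the family did, at 7.72, 15.8, 12.8 and 20.3 CPM in het and 16.4, 20.99, 18.5 and 28.4 CPM in ko. A member just over the limit, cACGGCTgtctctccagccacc with 41.1, was lower by the ko mean, with a fitted log2 change of -1.69 (adjusted p = 0.725 by limma). No test was made of a family. Only the family led by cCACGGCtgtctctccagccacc had sequences under 40 whose summed CPM did not overlap, and it was named after its values were seen. The families at the 5′ ends of 28S, 18S and the mitochondrial 16S rRNA had 0%, 0.0873% and 0.161% of such seeds. In the family of the 3′ end of 5.8S the share was 5.32%.

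Next, 5 sequences had the lowest seed viability among the 180 with a mean of at least 1 CPM. The leading 28S sequence shown above, with seed CGCGGC and a viability of 6.9, stood at 1.93, 5.50, 6.60 and 2.63 CPM in het and 4.07, 2.96, 9.45 and 5.88 CPM in ko, and 2 longer forms of it had means of 2.16 and 1.76 CPM. The other 2, cCCGGGCgtcgtcgcgccgtcg and cCCGGGCgtcgtcgcgccgtct, had a viability of 9.3 and means of 3.25 and 1.06 CPM, and each was seen in 4 libraries. The first of them reached 21.2 CPM in het replicate 1, which was 11 reads there, and at most 2.42 CPM elsewhere.

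At the high end, cATTCGTagacgacctgcttc with a viability of 95.8 was seen in 2 libraries, replicate 2 of het at 7.57 CPM and replicate 2 of ko at 0.653 CPM. gACGGAAgggcaccaccag, an 18S sequence with 83.0, was seen in 4 libraries. tTAGTGAcgcgcatgaatg, a pre-rRNA sequence with 87.6, stood at 7.72, 3.44, 2.33 and 2.25 CPM in het and at 0, 0.201, 0 and 0 CPM in ko, so that the genotypes did not overlap. A value of 0 lies below the worth of 3 reads, which was 2.94 CPM in ko replicate 4 and 0.382 CPM in ko replicate 1.

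The mean seed viability of rRNA fragments did not pass the test against that of miRNAs. The difference within libraries was -0.383 ± 1.78 (SD, n = 8), from -2.47 to 2.50, with rRNA fragments lower in 5 and higher in 3 of 8 (exact two-sided sign-flip permutation test, p = 0.563, adjusted over 2 tests p = 0.563). With 1 library left out it ran from -0.795 without het replicate 1 to -0.0853 without ko replicate 4, and it was -1.08 without the 3′ end of 5.8S. The median gave another picture, with 59.1 ± 1.88 for rRNA fragments and 52.2 ± 2.46 for miRNAs, a difference of 6.91 (sign-flip permutation p = 0.00781). The miRNA distribution was wider above, with 8.74% ± 0.720 of miRNA reads and 3.26% ± 0.901 of rRNA reads at a seed viability over 80. The miRNA median took 4 values over the 8 libraries. Against tRNA fragments, with a mean seed viability of 60.5 ± 0.997, rRNA fragments were lower by 4.48 ± 2.28, in 7 of 8 libraries (sign-flip permutation p = 0.0156, adjusted p = 0.0313). Without the 2 deepest libraries the difference was -4.59, no smaller, but passed no longer (sign-flip permutation p = 0.0625, the smallest possible with 6 libraries being 0.03125). The exception was het replicate 1, the shallowest library, at 0.45 higher. No difference between the genotypes was shown in either gap, with -0.251 ± 1.90 in het and -0.515 ± 1.93 in ko against miRNAs (exact permutation p = 0.914) and -4.19 ± 3.11 and -4.78 ± 1.49 against tRNA fragments (exact permutation p = 0.857).

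The leading rRNA seeds were scarcely used by miRNAs. The 789 sequences had 362 different seeds, of the 3427 in the table, and 203 of them occurred in no miRNA read. These 203 held 44.6% of the rRNA CPM. ACGCCU, at 99.3 CPM from 13 sequences of 5.8S, came from rRNA alone in these libraries, and CGCCUG at 62.8 CPM came from rRNA to 99.9%. GCGACC of the 28S end stood at 87.4 CPM with an rRNA share of 96.8%, ACCUGG of the 18S end at 54.0 CPM with 97.2%, and CUAAUC of the mitochondrial 16S end at 30.8 CPM with 99.8%. CCUCCC of 5.8S and pre-rRNA, at 44.1 CPM, had an rRNA share of 83.2%, from 26.9% to 98.9% in single libraries. In all, 126 seeds were from rRNA by over 50% of their CPM, and these held 74.2% of the rRNA CPM.

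Few rRNA fragments shared a seed with an abundant miRNA. The 14 rRNA seeds for which miRNAs reached 100 CPM held 1.42% of the rRNA CPM. The largest rRNA seed with a sizeable miRNA part was AAACCA, of viability 79.2, with 17.0 CPM from pre-rRNA fragments and 17.9 CPM from miRNAs led by miR-497a-3p. There rRNA gave 29.0% of the seed's CPM, from 9.02% to 55.3% in single libraries. The toxic seeds GACUCU and CGCGGC occurred in no miRNA read and came from rRNA to 90.5% and 89.5%. Some toxic seeds came mostly from other RNAs. The rRNA share was 6.08% for CCGGGC (viability 9.3), 33.9% for AUCCCC (14.6) and 6.35% for CCCACC (19.3), where miRNAs led by miR-1224-3p gave 53.2 CPM.

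The last comparison asked whether single rRNA fragments differed between ko and het. limma was fitted to log2(CPM + 1) of all sequences that averaged 10 CPM or more, and 16 of 3299 passed an adjusted p of 0.05, which is 0.485%. Only 11 rRNA fragments reached this level, and 0 of them were called. At an unadjusted p under 0.05 there was 1 of the 11, 9.09%, against 5.30% of all sequences tested, and with the replicate number as a block there were 0 of the 11, against 6.58% of all sequences, of which that fit called 0.788%. On the recovered reads, edgeR called 14 (0.424%) and DESeq2 27 (0.818%) of all sequences, with 4.49% and 5.43% at the unadjusted level. Of the 11 rRNA fragments, both tools called 0 and had 0 at the unadjusted level. By direction 3 of the 11 were higher in ko and 8 lower, with a median log2 fold change of -0.33 beside -0.02 over all sequences tested. From 1 CPM 85 were higher and 95 lower (47.2% higher, against 50.6% of all sequences), and with no limit 473 were higher and 316 lower (59.9%, against 57.8%).

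The 1 sequence with an unadjusted p under 0.05 was the 21-base form of the 5.8S 3′ end, tACGCCTgtctgagcgtcgct. It stood at 40.5, 25.5, 40.8 and 28.9 CPM in het and 17.9, 15.2, 12.9 and 30.4 CPM in ko, and ko replicate 4 lay within the het values. The fitted change was -0.84 ± 0.39 on the log2 scale (SE, adjusted p = 0.935 by limma), the lowest adjusted p of the 11. The 21-base form of start 1 had a fitted log2 change of -1.37 ± 0.83 (SE; adjusted p = 0.973 by limma), the largest of the 11, and its values of 11.6, 25.5, 10.5 and 10.9 CPM in het lay above the 9.92, 9.59, 7.73 and 0 CPM in ko. The ko value at 0 was that of replicate 4, where 3 reads were worth 2.94 CPM. On the higher side, the mitochondrial 16S end stood at 7.72, 16.5, 5.44 and 8.26 CPM in het and at 14.1, 13.2, 20.6 and 18.6 CPM in ko. The ranges overlapped, and the fitted change of 0.83 ± 0.46 on the log2 scale (SE) missed the threshold in limma (adjusted p = 0.973).

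A lower limit brought in more of the rRNA fragments but no call. With a mean of at least 1 CPM, 180 of them were tested among 16442 sequences, of which 35 (0.213%) were called by limma, and 0 rRNA fragments were called. At an unadjusted p under 0.05 there were 8 of 180, 4.44%, against 5.27% of all sequences tested, 3 higher and 5 lower in ko. The smallest p belonged to tTAGTGAcgcgcatgaatg, described above, whose fitted change was -2.11 on the log2 scale (limma adjusted p = 0.304). With no limit, limma called 45 of 47204 sequences (0.0953%) and 0 of the 789 rRNA fragments, and 27 of the 789 (3.42%) had an unadjusted p under 0.05, against 2.94% of all sequences.

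Summed by source entry, the result was the same. Of 700 RNA names that averaged 10 CPM or more, limma called 4 (0.571%), each lower in ko, and at an unadjusted p under 0.05 there were 49 (7%). Of the 10 rRNA entries among them, 0 were called and 0 had an unadjusted p under 0.05, and edgeR and DESeq2, which called 0.571% and 1.29% of all names, also called 0. Their log2 fold changes ran from -1.10 ± 0.82 (SE) for one 28S entry to 0.29 ± 0.29 for the other 28S entry, with 2 higher and 8 lower in ko and a median of -0.33, beside -0.08 for all names. Both entries of 5.8S were lower in ko, by -0.44 ± 0.36 and -0.34 ± 0.35 (limma adjusted p = 0.926 and 0.971). When libraries were centred on their medians, the median of all names moved by 0.21 on the log2 scale, which left 7 of the 10 rRNA entries lower, and without the 2 deepest libraries 7 of 10 were higher, so no direction is given for rRNA fragments as a class.

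The 28S entry with the most negative change was carried by a family of 11 sequences led by cGTCCGGccgtgccggtgg. It summed to 11.6, 39.9, 5.44 and 41.3 CPM in het and to 5.09, 5.42, 3.44 and 40.2 CPM in ko. Replicates 2 and 4 of het and replicate 4 of ko were high and the other 5 libraries low, which did not follow the genotype. A family of 23 sequences within 18S, led by tTTCGATggtagtcgccgtgc with a mean seed viability of 76.5, stood at 7.72, 15.1, 15.5 and 18.4 CPM in het and at 18.6, 22.9, 23.6 and 27.4 CPM in ko. These ranges did not overlap, by 0.177 CPM, less than the worth of 1 read in the 6 shallower libraries, and no test was made of a family. Another family within 18S, of 8 sequences led by gTACACAccgcccgtcgc, lay the other way round, at 23.2, 5.50, 3.88 and 7.13 CPM in het and at 0, 1.21, 1.29 and 0 CPM in ko, again without overlap. Its ko values of 0 lie below the worth of 3 reads, 2.94 CPM in ko replicate 4. Among the 20 largest families, only that led by tTTCGATggtagtcgccgtgc did not overlap. Both were named after their values were seen, out of 223 families. By the exact permutation test, full separation of 4 from 4 libraries can reach only p = 0.0286 for a single family, before any adjustment.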

How the data were processed

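The members, families and lists were chosen with earlier results of these data known, and the tests of base composition and length between RNA classes were added after values were seen. Per the labels, Ago-bound RNA of guide size was cut from a gel, made into libraries and sequenced on an Illumina instrument. The authors trimmed reads (Trim Galore), counted distinct sequences, annotated them with SPOROS, removed rare ones and deposited CPM, with a viability score per seed. The build was not given in the sources used here.

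All CPM values were whole multiples of 1 read (100%, within 0.0012 CPM), which gave reads per library. limma 3.58.1 (trend, robust; R 4.3.3) was run on log2(CPM + 1) for the whole table, with Benjamini-Hochberg adjustment over all features, and edgeR 4.0.16 and DESeq2 1.42.0 on recovered reads. On simulated data, limma recovered 62.5% of 200 sequences changed by a log2 fold of 2 among 3299, with 3.85% false. These were drawn from all sequences tested, so the recovery for the 11 rRNA fragments is not known. Class measures used exact permutation over 70 splits or sign flips within the 8 libraries (Python 3.11.15, numpy 2.4.6, scipy 1.17.1, pandas 2.3.3). Mice were the replicates. Sequences were matched without a mismatch to GENCODE M21 transcripts.

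Named sequences were the 10 of highest mean CPM, up to 5 with the smallest limma p in each direction, and, from 1 CPM, the 5 lowest and 3 highest in viability. Families, their leading sequences and the leading seeds were named outside this rule, after their values were seen. Source entries were mapped to rRNA types by hand. Alternatives were other pseudocounts, CPM limits, centring, replicate blocks, left-out libraries, lengths, viability limits and subsets of sequences.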

Additional observations from a re-analysis of the deposited data

Results flagged for a closer look

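In 101 groups of 4 libraries (class measures, source rRNAs, named sequences and the 20 largest families), 16 had 1 library that stood apart, its gap to the nearest of the others being above Dixon's 95% limit, which chance exceeds in about 1 of 20 groups. In het, replicate 1 was high for tACCTGGttgatcctgccagt (21.24 CPM) and cCCGGGCgtcgtcgcgccgtcg (21.24 CPM), replicate 2 was high for aCGCCTGtctgagcgtcgctt (25.45 CPM) and cATTCGTagacgacctgcttc (7.565 CPM), replicate 3 was low for the 5S family led by gGAATACcgggtgctgta (6.212 CPM), and replicate 4 was high for the pre-rRNA family led by aCCCTCCtccccccgctgccg (28.16 CPM). In ko, replicate 1 was high for cCCGGGCgtcgtcgcgccgtcg (2.417 CPM) and for the 4.5S sequence (1.145 CPM). Replicate 2, the deepest library, was the only ko library with a read of cATTCGTagacgacctgcttc (0.653 CPM), tTAGTGAcgcgcatgaatg (0.201 CPM) and cCCGGGCgtcgtcgcgccgtct (1.506 CPM), and it was low for the 5S family (6.026 CPM). Replicate 3 was the only ko library with a read of gACGGAAgggcaccaccag (0.859 CPM), which was below the worth of 3 reads there (1.29 CPM). It was high for the 18S family led by aTTGACGgaagggcacc (8.593 CPM) and the pre-rRNA family led by cCTCCACccgcgcgtcgttccc (26.21 CPM), and replicate 4 for the 28S family led by cGTCCGGccgtgccggtgg (40.17 CPM).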

How the results depend on the processing

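The counts of 0 rRNA fragments and 0 source rRNAs called between the genotypes held in all 17 and 18 alternatives run, and no rRNA fragment reached a mean of 100 CPM, so that limit gave no value for single sequences. What the replicate numbers mark was not given. The correlation of deviations of same-numbered libraries was -0.00554, 0.132, -0.127 and 0.149 for replicates 1 to 4. In ko, replicates 2 and 4 correlated best with the het library of the same number, and replicates 1 and 3 with another. Whether same-numbered mice shared a batch was not tested. With the number as a block, 0 fragments were called and the rRNA share differed by -0.00966 percentage points (exact p = 0.625). The blocked exact test cannot go below p = 0.125, so it says nothing on the class measures, and in limma the block changed no call of an rRNA fragment or source rRNA. Over the whole table it raised the calls from 16 to 26 sequences and from 4 to 10 RNA names. Without the 2 libraries over 5000000 reads the rRNA share reversed to 0.00731 percentage points. The difference from tRNA fragments, -4.59, was no smaller but passed no longer (permutation p = 0.0625, the smallest possible with 6 libraries being 0.03125). Both libraries are ko, so depth and genotype cannot be told apart there, and the cause was not tested. The genotype difference in mean seed viability reversed to 0.525 as a CPM-weighted median, and ran from -1.08 to 0.655 with a library left out, being above 0 without het replicate 1 and, at 0.241, without ko replicate 3. Without the 2 deep libraries it was -1.77 (exact permutation p = 0.467). The share of toxic seeds reversed to -0.0451 percentage points at a limit of 50, was 1.04 at a limit of 30, and rose to 6.30 without the 2 deep libraries (exact permutation p = 0.133). The difference from miRNAs reversed to 6.91 as a median. The difference in mean length, 0.32 bases, stayed above 0 in all 13 alternatives but fell to 0.195 without het replicate 1 and 0.111 without the 2 deep libraries, and rose to 0.547 without the 3′ end of 5.8S. Most single fragments were not seen in the shallower libraries, and how far depth limited their precision was not tested. Leaving out the 3′ end of 5.8S, and the deep libraries in the class comparisons, was chosen after seeing the data.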
